A study of Mus musculus with 5 samples.

Results

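The genes described here are the collagen alpha chains of the mouse colon, taken as every row of the deposited gene table whose symbol has the form Col, a number, a and a number. They are 44 of the 52382 genes in the table. By the type of collagen they build, 11 are fibrillar chains, 9 are basement membrane chains and 24 are grouped as minor chains (beaded filament, fibril-associated, network and transmembrane collagens). They were followed over 5 RNA sequencing libraries of a colitis-associated colon cancer model, which combines injections of the mutagen azoxymethane (AOM) with cycles of dextran sulfate sodium (DSS), an agent toxic to the gut lining, in drinking water. The weeks give the libraries their names. W0 is the untreated control, W2 carries the label AOM without DSS, and W5, W8 and W11 carry the label AOM/DSS. Male wild-type C57BL/6 mice aged 8 to 12 weeks received AOM at 8.5 mg per kg intraperitoneally on days 1 and 8, then 1.5% DSS for 7 days, plain water for 14 days and further DSS cycles. W0 mice were kept on distilled water. The sources describe W0 both as sampled before administration and as killed together with the treated mice, so age and treatment cannot be told apart in a comparison with it. In each group 3 mice were selected, and whether their RNA was pooled is not given in the sources used here.

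Each week has 1 library, so there is no replicate check, no test between weeks and no p-value. A difference below compares single libraries, and its interval covers the error of counting reads only. Every comparison against W0 shares the same W0 library. Levels are in CPM, that is, reads of a gene per 1000000 reads counted in the library. Folds are differences of log2(CPM + 1), a scale that understates the change of low genes. A chain was tested if its mean over the 5 libraries was at least 1 CPM, and it is said to have risen or fallen where it differed by 2-fold or more on that scale. A fold printed with a counting interval is the plain ratio of the CPM values.

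Collagens are triple helices of 3 alpha chains. Fibrillar collagens, of which types I and III are the main ones of the gut wall, are secreted mainly by fibroblasts and smooth muscle cells and are cleaved, crosslinked and packed into fibrils. Type IV collagen forms the network of basement membranes under the epithelium and around vessels, muscle cells and nerves, and types XV and XVIII are proteoglycans of the basement membrane zone. Minor collagens decorate fibrils, form beaded filaments around cells or span cell membranes. Because whole tissue was sequenced, fewer cells of a type and less RNA per cell cannot be told apart.

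The libraries held between 13389184 (W8) and 20379429 (W5) counted reads, and 20111 to 21245 genes had at least 1 read. The labels name colon tissue as well as intestinal epithelial cells. Acta2, the smooth muscle and myofibroblast actin, stood at 1014 CPM at W0, 1273 at W2, 1737 at W5 and 685 at W8, and 705 at W11, so the libraries do not hold epithelium alone. Transcript GC content and length moved with the folds of all genes, and collagen transcripts are long and GC-rich. Their median longest transcript was 5794 bases against 3165 for all tested genes, and their median GC content was 56.3% against 49.8%. At W5 against W0, the median log2 fold of all genes went from 0.45 in the GC-poorest 10% to -0.21 in the GC-richest. At W11 against W0, it went from 0.69 in the shortest 10% to -0.84 in the longest. Removing these trends was an alternative chosen after seeing the data.

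Collagen reads as a whole differed between the weeks. The 44 chains summed to 3376 CPM at W0, 1911 at W2, 5991 at W5 and 5269 at W8, and 2221 at W11. They took 0.338% of all counts at W0 (exact 95% binomial interval 0.335% to 0.341%), 0.191% at W2, 0.599% at W5 and 0.527% at W8, and 0.222% at W11. W5 and W8 were thus the high libraries and W2 and W11 the low ones, and the sum at W5 was the highest of the 5. The order of W5 and W8 rests on Col3a1, which alone had 2540.1 CPM at W5 and 1429 at W8. Of the 34 tested chains, 10 were highest at W5 and 16 at W8. The fibrillar chains summed to 1740.2 CPM at W0, 973 at W2, 3771 at W5 and 2962 at W8, and 1421 at W11. The basement membrane chains summed to 539 CPM at W0, 332 at W2, 1038 at W5 and 1214 at W8, and 339 at W11. The minor chains summed to 1096 CPM at W0, 605 at W2, 1182 at W5 and 1093 at W8, and 461 at W11. The summed minor class thus stayed close to its W0 value at W5 and W8, where both other classes were above theirs. Col6a1, Col6a2 and Col6a3 had 367, 299 and 136 of its 1096 CPM at W0. The minor sum therefore mainly follows these chains, and other minor chains rose, as given below. On the deposited scale of reads per kilobase of gene and library size (RPKM), minor chains held 40.9% of the collagen signal at W0 and 39.1% at W2. They held 25.9% at W5 and 24.9% at W8, and 27.9% at W11. Fibrillar chains held 42.6% of that signal at W0 and 55.4% at W5, and basement membrane chains held 16.5% at W0 and 24.9% at W8. RPKM rests on the authors' gene lengths, which can differ from transcript lengths. By read counts the minor share was 32.5% at W0 and 31.7% at W2, against 19.7% at W5 and 20.7% at W8, and 20.8% at W11.

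**Figure D1:**
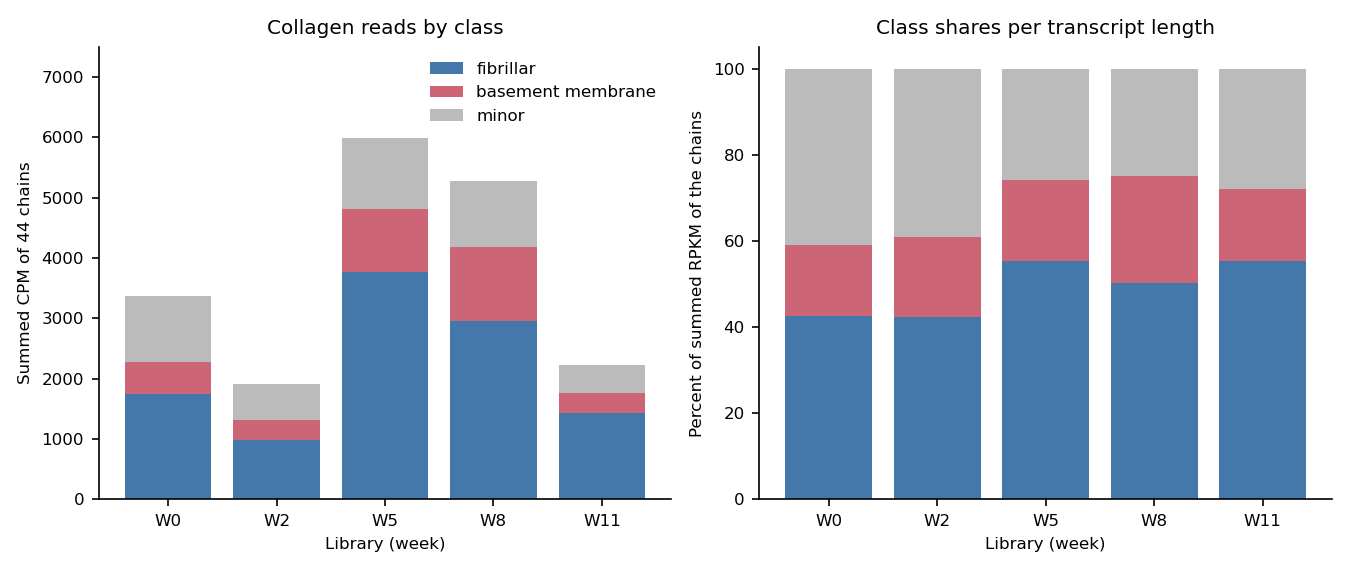
Left, summed CPM of the 44 collagen chains in each library, stacked by class, with 1 library per week. Right, each class as a percent of the summed RPKM of the chains. The total is lowest at W2 (1911 CPM) and highest at W5 (5991 CPM), and the minor share of RPKM drops from 40.9% at W0 to 24.9% at W8. RPKM rests on the authors' gene lengths, which can differ from transcript lengths.

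Of the 44 chains, 34 were tested (9 fibrillar, 6 basement membrane and 19 minor). Col7a1, Col9a3, Col17a1 and Col22a1 averaged below 1 CPM over W0 and W2 and passed through their higher libraries, so their rises are partly set by the filter. At W2, 1 chain rose and 7 fell, where 3.41% of all 14720 tested genes rose and 4.23% fell. The median log2 fold of the chains was -0.68 against -0.02 for all genes, and 28 of the 34 lay below W0. At W5, 9 chains rose and 1 fell, against backgrounds of 6.63% and 1.87%, with a median of 0.50 against 0.11. At W8, 12 rose and 2 fell, against 7.79% and 3.85%, with a median of 0.44 against 0.11. At W11, 3 rose and 11 fell, against 11.3% and 16.9%, with a median of -0.64 against -0.15. With the length trend removed, the W11 counts became 6 and 6 and the median -0.08, so these W11 values depend on that setting. The chain medians kept their sign under all scalings tried, while median-of-ratios scaling moved the median of all genes to -0.02 at W5, 0.00 at W8 and 0.04 at W11.

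The 7 tested chains that neither rose nor fell against W0 in any library were Col1a2, Col5a3, Col11a2, Col13a1, Col16a1, Col23a1 and Col28a1. The changes that kept 2-fold in every alternative were, at W2, those of Col14a1, Col15a1, Col18a1 and Col19a1, and at W5, those of Col3a1, Col4a1, Col4a5, Col9a3 and Col18a1. At W8 they were the rises of Col1a1, Col4a1, Col4a2, Col5a2, Col6a4, Col9a2, Col9a3, Col12a1 and Col18a1, and at W11 the rises of Col9a2 and Col9a3 and the falls of Col4a5 and Col6a5. All 70 changes of 2-fold or more, over the 4 comparisons with W0 and that of W11 with W8, had counting intervals that left out a ratio of 1. At W5, 1 of 9 fibrillar, 3 of 6 basement membrane and 5 of 19 minor chains rose, where 6.63% of all genes did. At W8 the numbers were 2, 4 and 6 in the same order, where 7.79% of all genes rose. Col9a3, Col17a1 and Col22a1 at both weeks and Col7a1 at W8 were among these, and their rises are partly set by the filter. By class, the median log2 fold at W2 was -0.70 for fibrillar, -0.97 for basement membrane and -0.44 for minor chains. At W5 the medians were 0.63, 0.92 and 0.36 in the same order, and at W8 they were 0.64, 1.30 and 0.32. At W11 they were -0.65, -0.58 and -0.74. Basement membrane chains thus had the lowest median of the classes at W2 and the highest at W5 and W8, over 6 chains, and the differences between classes were not tested. That order depends on the filter. With no filter, the basement membrane median was -0.63 at W2 next to -0.67 for fibrillar chains, and -0.09 at W8 next to 0.64.

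**Figure D2:**
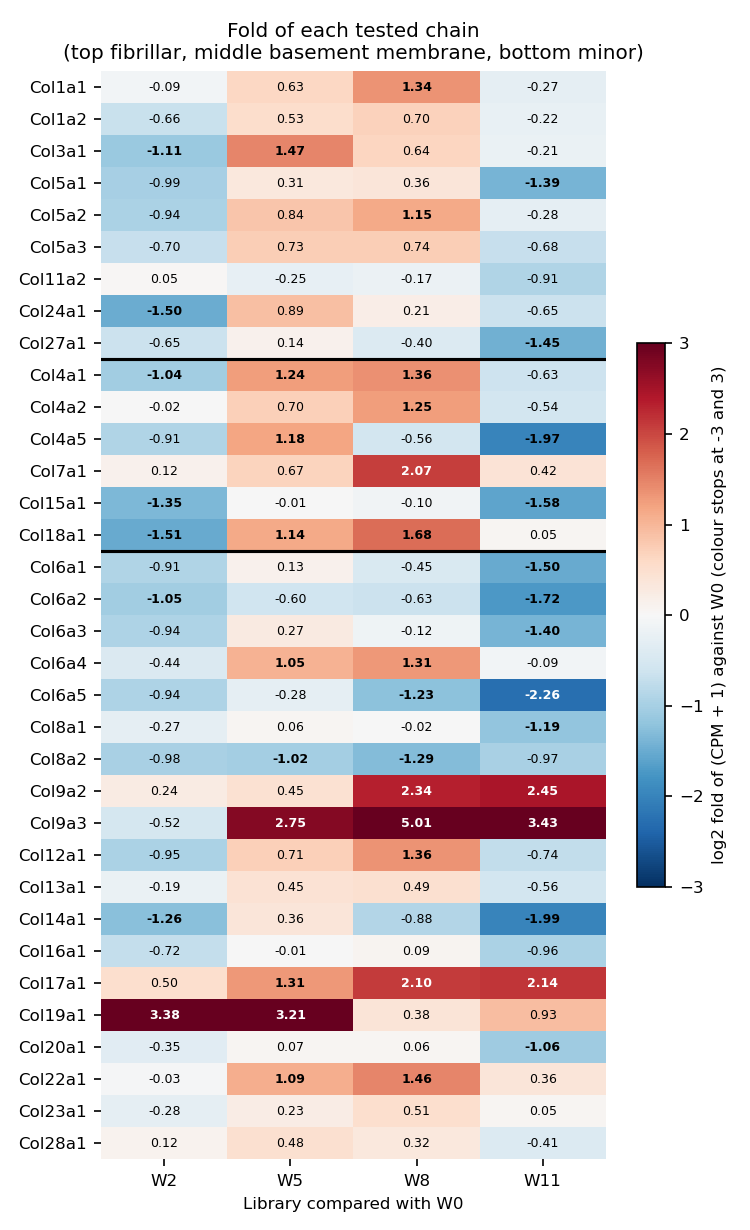
Log2 fold of (CPM + 1) against W0 for the 34 tested chains in the W2, W5, W8 and W11 libraries, with fibrillar chains at the top, basement membrane chains in the middle and minor chains at the bottom, and values of 2-fold or more in bold. The W2 and W11 columns are mostly blue (lower) and the W5 and W8 columns mostly red (higher), with Col9a3 reaching 5.01 at W8 and Col19a1 standing at 3.38 at W2 and 3.21 at W5.

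Among the fibrillar chains, Col3a1, which forms the type III homotrimer of reticular fibers, had the largest differences from W0 in CPM. Its level was 914 CPM at W0, 422 at W2, 2540.1 at W5 and 1429 at W8, and 791 at W11. It fell at W2, by 2.17-fold (95% counting interval 2.10 to 2.23; a log2 fold of -1.11, or -0.94 with both trends removed), and was the one fibrillar chain that rose at W5, at 2.78 times W0 (95% counting interval 2.73 to 2.83). At W5 its level was 6.02 times W2 (95% counting interval 5.86 to 6.18). Col3a1 took 27.1% of all collagen counts at W0, 42.4% at W5 and 27.1% at W8. In the deposited RPKM values it had 40.9 at W0, 18.2 at W2, 120.3 at W5 and 64.3 at W8, and 35.04 at W11. That was the highest of the 44 chains in every library but W2, where Col6a1 had 19.9 RPKM. By counts at W2, Col3a1 had 6177 reads on a longest transcript of 5564 bases, and Col6a1 had 2860 reads on 4100 bases. The order of chains by RPKM thus depends on the authors' gene lengths.

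The type I chains were highest at W8. Col1a1, which supplies 2 of the 3 chains of type I collagen, had 192 CPM at W0, 180.0 at W2, 298 at W5 and 487 at W8, and 159 at W11. It rose at W8, to 2.53 times W0 (95% counting interval 2.42 to 2.65), and W8 was its highest library. Col1a2, the third chain of the type I trimer, had 371 CPM at W0, 235 at W2, 537 at W5 and 603 at W8, and 318 at W11, and it did not pass 2-fold against W0 in any library. The low library for Col1a2 was W2 and for Col1a1 W11.

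Windows of 300 bases around the annotated start (250 before it and 50 after it) are shown for Col3a1, the fibrillar chain that rose at W5, and Col1a2, an abundant fibrillar chain that did not. They come from RefSeq on GRCm38.p6, at chr1:45311288-45311587 (plus strand) for Col3a1 and chr6:4505368-4505667 (plus strand) for Col1a2. Capitals mark matches on either strand to 3 motifs, the CCAAT box (letters CCAAT), the GC box (here its core letters GGGCGG) and the TATA box (here searched with letters TATAAA).
Col3a1: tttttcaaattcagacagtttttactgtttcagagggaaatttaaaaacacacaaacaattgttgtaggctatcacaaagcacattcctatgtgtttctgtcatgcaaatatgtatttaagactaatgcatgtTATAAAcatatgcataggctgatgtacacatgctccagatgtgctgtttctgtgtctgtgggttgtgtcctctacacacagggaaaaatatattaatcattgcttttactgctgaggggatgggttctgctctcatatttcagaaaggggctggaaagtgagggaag
Col1a2: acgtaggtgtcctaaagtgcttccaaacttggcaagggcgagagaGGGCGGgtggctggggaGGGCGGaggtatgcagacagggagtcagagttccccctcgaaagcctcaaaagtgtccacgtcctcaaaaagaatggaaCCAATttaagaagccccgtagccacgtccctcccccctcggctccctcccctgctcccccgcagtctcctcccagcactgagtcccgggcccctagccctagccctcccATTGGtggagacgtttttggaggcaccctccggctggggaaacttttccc
The Col3a1 window holds 1 TATA box and neither other motif, and the Col1a2 window holds 2 CCAAT boxes and 2 GC boxes. Over all 32851 promoter windows of the table, 37.4% hold a CCAAT box, 35.7% a GC box and 13.6% a TATA box. Windows were found for 35 of the 44 chains (38 windows), of which 34.2% hold a CCAAT box, 60.5% a GC box and 13.2% a TATA box. No match overlaps another in the windows printed here. A match is a description of letters, and nothing here measured binding.

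Because a ratio of 2 genes within a library does not depend on library scaling, the balance between chains can be read directly. The count ratio of Col3a1 to Col1a1 was 4.76 at W0, 2.34 at W2, 8.53 at W5 and 2.93 at W8, and 4.98 at W11. The W5 ratio was 8.53 (95% interval 8.31 to 8.76) and the W2 ratio 2.34 (95% interval 2.24 to 2.45), on either side of 4.76 (95% interval 4.56 to 4.96) at W0. In RPKM the ratio was 3.07 at W0, 1.51 at W2, 5.51 at W5 and 1.90 at W8, and 3.22 at W11. RPKM rests on the authors' gene lengths, while the longest transcripts have 5564 bases for Col3a1 and 5930 for Col1a1. Col3a1 transcripts have a GC content of 52.5% and Col1a1 58.9%, and with the GC trend removed the change of the ratio at W5 went from 0.84 to 0.65 on the log2 scale. At W2 it was -1.02, and -1.06 with the trend removed.

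The chains of the type I heterotrimer also shifted against each other. The count ratio of Col1a2 to Col1a1 was 1.93 at W0, 1.31 at W2, 1.80 at W5 and 1.24 at W8, and 2.00 at W11. It was low at W2 and W8 and close to its W0 value at W5 and W11. Its per-length value is also uncertain, because the deposited columns imply a Col1a2 gene length 2.37 times that of Col1a1. The longest annotated transcripts differ by a factor of 0.902.

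Type V collagen regulates the diameter of type I fibrils. Its chain Col5a1 had 111 CPM at W0, 55.6 at W2, 138 at W5 and 143 at W8, and 41.8 at W11, and it fell at W11 by 2.66-fold (95% counting interval 2.43 to 2.93). Its partner Col5a2 had 115 CPM at W0, 59.3 at W2, 206 at W5 and 256 at W8, and 94.5 at W11, and it rose at W8 to 2.23 times W0 (95% counting interval 2.10 to 2.37). The count ratio of Col5a1 to Col5a2 was 0.970 at W0, 0.938 at W2, 0.668 at W5 and 0.558 at W8, and 0.442 at W11, lowest at W11 and highest at W0. With the GC trend removed, the log2 change of this ratio went from -0.54 to -0.23 at W5 and from -1.12 to -1.28 at W11. The third type V chain, Col5a3, had 15.97 CPM at W0, 9.43 at W2, 27.2 at W5 and 27.3 at W8, and 9.57 at W11, and none of its differences from W0 reached 2-fold.

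**Figure D3:**
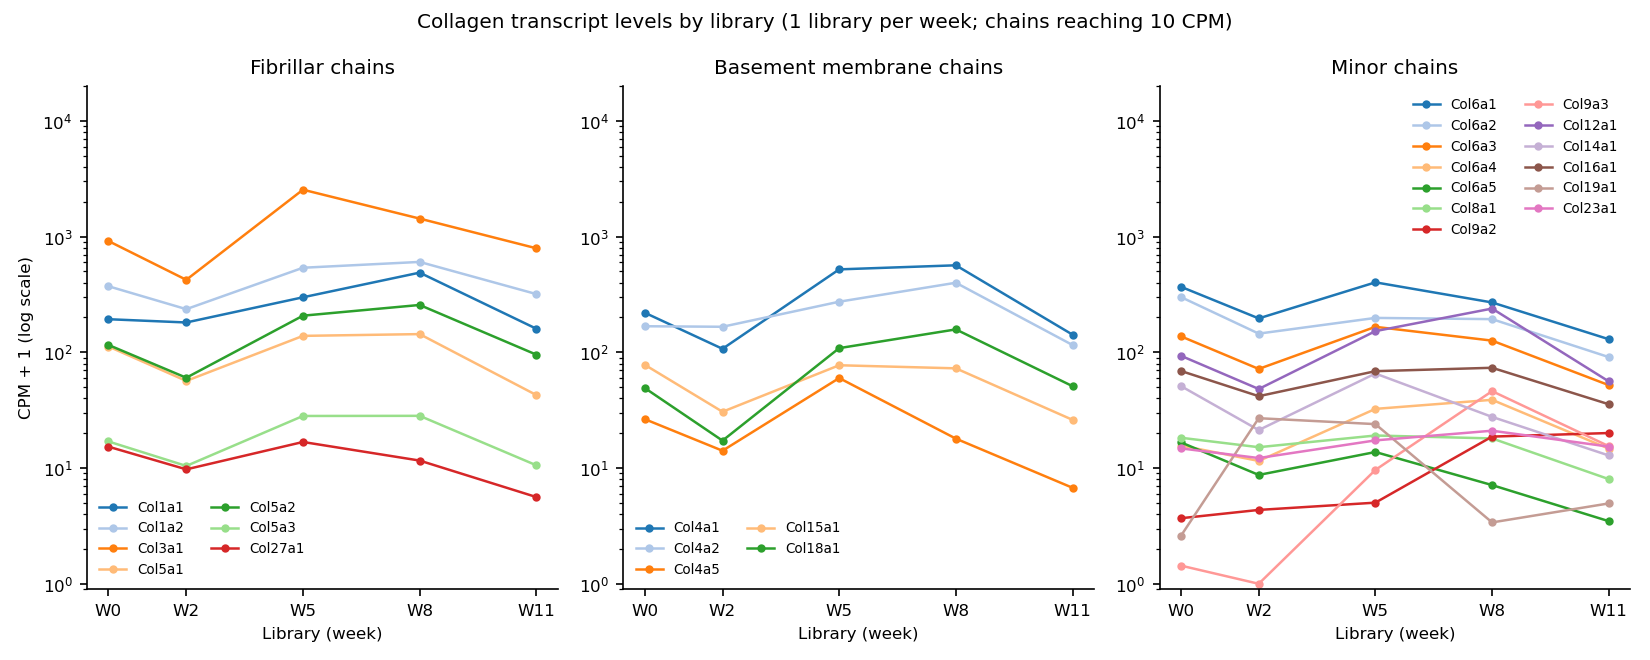
CPM + 1 on a log scale in each of the 5 libraries for the chains that reached 10 CPM, in 3 panels by class, each line 1 chain and each point 1 library. Col3a1 runs above the other fibrillar chains with its peak of 2540.1 CPM at W5, every fibrillar and basement membrane chain shown is lower at W2 and W11 than at W5 and W8, and Col19a1 and Col9a3 move apart from the other minor chains.

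The lower fibrillar chains were Col24a1 and Col27a1, both fibrillar chains with short, imperfect helices. Col24a1 had 2.98 CPM at W0, 0.410 at W2, 6.38 at W5 and 3.58 at W8, and 1.54 at W11, and it fell at W2 by 7.26-fold (95% counting interval 3.07 to 20.9). That value rests on 6 reads at W2, and its log2 fold of -1.50 became -0.56 with a pseudocount of 5. Col27a1 had 14.3 CPM at W0, 8.74 at W2, 15.8 at W5 and 10.6 at W8, and 4.62 at W11, and it fell at W11 by 3.10-fold (95% counting interval 2.34 to 4.14). Col11a2, a type XI chain, stayed between 0.54 CPM (W11) and 1.98 CPM (W2). Of the cartilage chains, Col2a1 had 0 counts at W0 and W2, 1 at W5 and 10 at W8, and 8 at W11, and Col11a1 ranged from 0.07 CPM at W11 to 1.89 CPM at W0. Neither was tested.

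Type IV collagen led the basement membrane chains. Col4a1, which supplies 2 chains of the common type IV trimer, had 219 CPM at W0, 106 at W2, 519.8 at W5 and 564 at W8, and 141 at W11. It fell at W2 by 2.06-fold (95% counting interval 1.94 to 2.19) and rose to 2.37 times W0 (95% counting interval 2.28 to 2.47) at W5 and 2.57 times W0 (95% counting interval 2.47 to 2.69) at W8. The W2 fall is close to the threshold, and with median-of-ratios scaling, a trimmed total or either trend removed it was less than 2-fold. Col4a2, the third chain of that trimer, had 167 CPM at W0, 165 at W2, 273 at W5 and 398 at W8, and 115 at W11. It rose at W8 to 2.38 times W0 (95% counting interval 2.27 to 2.50), and at W2 it was 0.989 times W0 (95% counting interval 0.934 to 1.05).

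Col4a1 and Col4a2 are transcribed head to head from one shared promoter region, so the start windows of both are shown. In the RefSeq table they lie on GRCm38.p6 at chr8:11312777-11313076 (minus strand, Col4a1) and chr8:11312555-11312854 (plus strand, Col4a2). The annotated starts are 21 bases apart, with that of the minus-strand Col4a1 at the higher coordinate. As annotated, the transcripts thus overlap at their starts, with no gap between them. Capitals mark the 78 bases, chr8:11312777-11312854, that both windows contain on opposite strands.
Col4a1: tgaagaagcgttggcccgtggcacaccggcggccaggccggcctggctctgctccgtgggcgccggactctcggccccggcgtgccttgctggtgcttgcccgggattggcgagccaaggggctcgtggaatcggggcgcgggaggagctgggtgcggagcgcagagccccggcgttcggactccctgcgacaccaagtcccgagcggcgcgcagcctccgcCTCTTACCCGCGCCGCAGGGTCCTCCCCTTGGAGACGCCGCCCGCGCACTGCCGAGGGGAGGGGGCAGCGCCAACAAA
Col4a2: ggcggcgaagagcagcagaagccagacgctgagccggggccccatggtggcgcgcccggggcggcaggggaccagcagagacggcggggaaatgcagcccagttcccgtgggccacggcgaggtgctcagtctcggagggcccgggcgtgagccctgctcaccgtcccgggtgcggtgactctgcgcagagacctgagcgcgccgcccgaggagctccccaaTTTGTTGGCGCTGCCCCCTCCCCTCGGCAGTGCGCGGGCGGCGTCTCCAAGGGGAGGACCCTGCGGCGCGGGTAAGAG
Each window holds 1 CCAAT box, and the Col4a1 window holds 1 GC box where the Col4a2 window holds 3. The count ratio of Col4a1 to Col4a2 differed between libraries, at 1.31 at W0, 0.643 at W2, 1.91 at W5 and 1.42 at W8, and 1.23 at W11. It was 0.643 (95% interval 0.603 to 0.685) at W2 and 1.91 (95% interval 1.85 to 1.97) at W5, and W2 was the one library with fewer Col4a1 than Col4a2 reads. In RPKM the ratio was 0.892 at W0, 0.437 at W2, 1.30 at W5 and 0.964 at W8, and 0.839 at W11. RPKM rests on the authors' gene lengths, while the longest transcripts are close, at 6615 bases for Col4a1 and 6450 for Col4a2. Which chain was higher per length is thus uncertain. With the GC trend removed, the log2 change of the ratio was -1.02 at W2, as without it, and 0.51 at W5 where it was 0.54. How the authors' counting treated strand is not given in the sources used here.

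**Figure D4:**
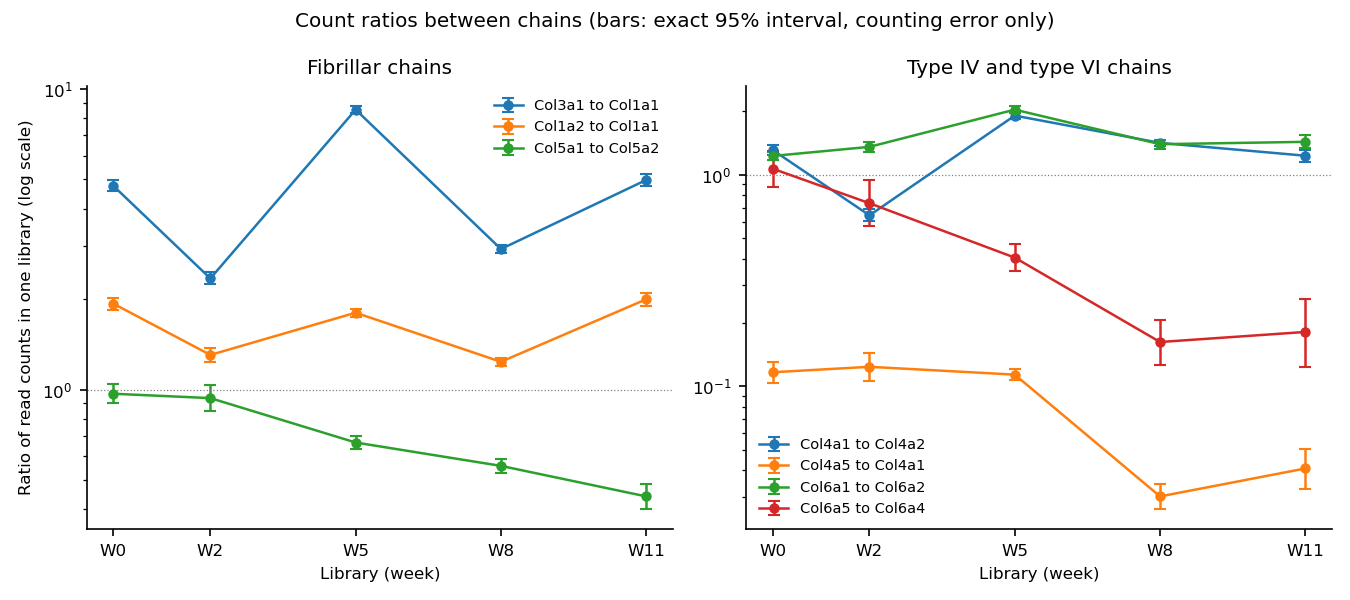
Ratio of read counts between pairs of chains within each library, on a log scale, with bars for the exact 95% interval of counting error and a dotted line at 1. Left, fibrillar pairs, where Col3a1 to Col1a1 runs from 2.34 at W2 to 8.53 at W5. Right, type IV and type VI pairs, where Col4a1 to Col4a2 crosses 1 at W2 (0.643) and Col6a5 to Col6a4 drops from 1.07 at W0 to 0.162 at W8.

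The second head-to-head pair that could be followed was Col4a5 and Col4a6 on chromosome X, chains of type IV trimers found in kidney, skin and smooth muscle basement membranes. Col4a5 had 25.5 CPM at W0, 13.1 at W2, 58.9 at W5 and 16.95 at W8, and 5.75 at W11. It rose at W5 to 2.31 times W0 (95% counting interval 2.05 to 2.61) and fell at W11 by 4.43-fold (95% counting interval 3.49 to 5.67). Its peak was at W5 alone, where Col4a1 was high at both W5 and W8, and the count ratio of Col4a5 to Col4a1 was 0.116 at W0, 0.123 at W2, 0.113 at W5 and 0.0301 at W8, and 0.0408 at W11. Col4a6 stayed between 0.27 CPM (W2) and 0.83 CPM (W5) and was not tested. The count ratio of Col4a5 to Col4a6 ranged from 14.3 at W11 to 70.6 at W5, with wide intervals on few Col4a6 reads.

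Their start windows are shown for comparison with the pair above. They lie at chrX:141475169-141475468 (plus strand, Col4a5) and chrX:141474027-141474326 (minus strand, Col4a6) on GRCm38.p6 in RefSeq. Their annotated starts are 1343 bases apart, so the windows share no bases. Capitals mark the same motifs as in the fibrillar windows.
Col4a5: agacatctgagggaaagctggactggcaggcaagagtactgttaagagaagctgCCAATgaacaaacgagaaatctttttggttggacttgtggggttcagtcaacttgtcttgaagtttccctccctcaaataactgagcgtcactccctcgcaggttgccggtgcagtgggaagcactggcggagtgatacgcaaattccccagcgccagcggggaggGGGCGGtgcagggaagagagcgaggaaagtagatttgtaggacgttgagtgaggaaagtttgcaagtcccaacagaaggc
Col4a6: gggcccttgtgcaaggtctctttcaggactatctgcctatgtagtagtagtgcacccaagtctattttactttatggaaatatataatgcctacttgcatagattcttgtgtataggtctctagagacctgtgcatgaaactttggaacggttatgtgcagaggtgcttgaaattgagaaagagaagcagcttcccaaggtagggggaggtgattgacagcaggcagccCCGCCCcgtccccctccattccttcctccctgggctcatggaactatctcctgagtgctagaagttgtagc
The Col4a5 window holds 1 CCAAT box and 1 GC box, and the Col4a6 window holds 1 GC box. Col4a3 and Col4a4, the remaining type IV chains, were below 1 CPM in every library and were not tested.

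The other basement membrane chains split. Col18a1, whose C-terminal fragment is endostatin, had 48.2 CPM at W0, 16.3 at W2, 108 at W5 and 157 at W8, and 49.98 at W11. It fell at W2 by 2.96-fold (95% counting interval 2.55 to 3.45) and rose to 2.23 times W0 (95% counting interval 2.05 to 2.44) at W5 and 3.25 times W0 (95% counting interval 2.98 to 3.56) at W8. Col15a1, the related chain of vessel and muscle basement membranes, had 77.1 CPM at W0, 29.6 at W2, 76.3 at W5 and 71.7 at W8, and 25.1 at W11. It fell at W2 by 2.60-fold (95% counting interval 2.32 to 2.91) and at W11 by 3.07-fold (95% counting interval 2.73 to 3.46), and at W5 and W8 it was near W0. Col7a1, the anchoring fibril chain that fastens stratified epithelium to stroma, had 0.798 CPM at W0, 0.956 at W2, 1.86 at W5 and 6.57 at W8, and 1.41 at W11, and it rose at W8 to 8.23 times W0 (95% counting interval 4.38 to 17.1) on 88 reads.

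Of the minor chains, those of the beaded filament collagen VI were the most abundant at W0 by CPM and by deposited RPKM. Col6a1 had 367 CPM at W0, 195 at W2, 401 at W5 and 269 at W8, and 129 at W11. In RPKM, on the authors' gene lengths, it had 39.0 at W0 next to 40.9 for Col3a1, which had 914 CPM there. Col6a2 had 299 CPM at W0, 144 at W2, 197 at W5 and 192 at W8, and 89.9 at W11, and Col6a3, the largest chain of the trimer, had 136 CPM at W0, 70.8 at W2, 165 at W5 and 125 at W8, and 51.1 at W11. None of the 3 rose at W5 or W8. All 3 fell at W11, by 2.85-fold (95% counting interval 2.71 to 3.01) for Col6a1, 3.33-fold (95% counting interval 3.13 to 3.54) for Col6a2 and 2.67-fold (95% counting interval 2.46 to 2.91) for Col6a3. Col6a2 also fell at W2, by 2.08-fold (95% counting interval 1.97 to 2.19), and with either or both trends removed this fall was less than 2-fold. With the length trend removed or W2 as the baseline, the W11 fall of Col6a3 was less than 2-fold, as were those of Col5a1 and Col27a1 above. The fall of Col6a1 and Col6a2 at W11 was less than 2-fold in 1 of 12 alternatives, that with W2 as the baseline.

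Col6a4 and Col6a5, alternatives to Col6a3 in collagen VI, moved in opposite directions at W8. Col6a4 had 14.7 CPM at W0, 10.5 at W2, 31.5 at W5 and 37.9 at W8, and 13.7 at W11. It rose at W5 and W8, to 2.58 times W0 (95% counting interval 2.19 to 3.06) at W8, and its W5 log2 fold of 1.05 was as low as 0.89 in the alternatives. Col6a5 had 15.7 CPM at W0, 7.72 at W2, 12.8 at W5 and 6.12 at W8, and 2.48 at W11. It fell at W8 by 2.56-fold (95% counting interval 1.98 to 3.34) and at W11 by 6.33-fold (95% counting interval 4.45 to 9.24). Their count ratio, Col6a5 to Col6a4, was 1.07 at W0, 0.734 at W2, 0.406 at W5 and 0.162 at W8, and 0.180 at W11. It was lower at W8 and W11 than in the other libraries. Col6a6 was below 1 CPM in every library and was not tested.

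The fibril-associated chains differed from each other. Col12a1, found on type I fibrils of loaded and remodelling tissue, had 92.3 CPM at W0, 47.2 at W2, 151 at W5 and 238 at W8, and 55.1 at W11. It rose at W8 to 2.58 times W0 (95% counting interval 2.41 to 2.75). Col14a1, a related fibril-associated chain, had 50.1 CPM at W0, 20.3 at W2, 64.6 at W5 and 26.7 at W8, and 11.8 at W11. It fell at W2 by 2.47-fold (95% counting interval 2.15 to 2.84) and at W11 by 4.23-fold (95% counting interval 3.58 to 5.02). Col16a1 had 68.004 CPM at W0, 40.8 at W2, 67.7 at W5 and 72.5 at W8, and 34.6 at W11, and it did not reach 2-fold against W0 in any library. Col12a1 was highest at W8, where Col14a1 was below its W0 level.

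Col19a1, a fibril-associated chain known in mouse from esophageal muscle, was the one chain that rose at W2. It had 1.60 CPM at W0, 25.95 at W2, 22.96 at W5 and 2.39 at W8, and 3.95 at W11, on 22, 380, 468, 32 and 59 reads. W2 stood at 16.3 times W0 (95% counting interval 10.6 to 26.3) and W5 at 14.4 times W0 (95% counting interval 9.39 to 23.2), and the log2 folds at W8 and W11 were 0.38 and 0.93. With W2 as the baseline its W5 log2 fold was -0.17. The enteric neuron markers were also high at W2, where 5 of 6 tested markers rose (3.41% of all genes did), and they summed to 88.6 CPM at W0, 210.1 at W2, 150.2 at W5 and 58.4 at W8, and 50.8 at W11. Vip alone had 113.4 CPM of the W5 sum. It was the 1 of 6 tested markers that rose at W5, where 6.63% of all genes did. The median log2 fold of these markers at W5 was 0.19, so as a list they did not stay high with Col19a1. Smooth muscle markers summed to 5076 CPM at W0, 7468 at W2, 5428 at W5 and 3257 at W8, and 3416 at W11, also highest at W2. The part of either in the Col19a1 level was not tested.

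Type IX collagen, known from cartilage, where its chains sit on type II fibrils, was higher in the later libraries. Col9a3 had 6, 0, 176, 605 and 216 reads at W0, W2, W5, W8 and W11, or 0.435 CPM at W0, 0 at W2, 8.64 at W5 and 45.2 at W8, and 14.5 at W11. It rose to 19.8 times W0 (95% counting interval 8.93 to 54.8) at W5, 104 times W0 (95% counting interval 47.4 to 284) at W8 and 33.2 times W0 (95% counting interval 15.002 to 91.4) at W11. Col9a2 had 2.69 CPM at W0, 3.35 at W2, 4.02 at W5 and 17.7 at W8, and 19.1 at W11, and it rose to 6.59 times W0 (95% counting interval 4.65 to 9.59) at W8 and 7.10 times W0 (95% counting interval 5.03 to 10.3) at W11. Col9a1, which was not tested, had 1, 2, 4, 17 and 38 reads. The 3 chains together had 44, 51, 262, 859 and 539 reads at W0, W2, W5, W8 and W11. Col9a2 and Col9a3 kept their rises at W8 and W11 in all 12 alternatives, and they and Col17a1 were the only tested chains that rose at W11.

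Col17a1, the transmembrane collagen of hemidesmosomes in stratified epithelium, had 0, 6, 30, 44 and 51 reads, or 0 CPM at W0, 0.410 at W2, 1.47 at W5 and 3.29 at W8, and 3.41 at W11. Against a floor of 3 reads at W0, it was at least 6.76-fold higher at W5, at least 15.1-fold at W8 and at least 15.7-fold at W11. Of 6 markers of squamous epithelium, the 4 tested (Krt14, Krt13, Krt4 and Krt15) rose at W8 and at W11, where 7.79% and 11.3% of all genes rose, and the list summed to 5.37 CPM at W0, 5.40 at W2, 26.3 at W5 and 61.9 at W8, and 69.7 at W11. All but Krt14 averaged below 1 CPM over W0 and W2 and passed through their higher libraries, so that count is partly set by the filter. Krt14, a basal keratin, had 2.83 CPM at W0, 3.89 at W2, 15.9 at W5 and 41.5 at W8, and 43.4 at W11, while Krt5 and Trp63, defining markers of that epithelium, stayed at or below 0.22 and 0.13 CPM. The part of that cell type in the Col17a1 level was not tested. Of 7 tested hemidesmosome partners, Lama3, a laminin chain, fell at W2 and rose at W5 and W8. Of all genes, 4.23% fell at W2, and 6.63% and 7.79% rose at W5 and W8. Dst fell at W8, where 3.85% of all genes fell. Dst and Plec, linkers to the cytoskeleton, fell at W11, where 16.9% of all genes fell.

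The remaining minor chains were low or moved little. Col8a1, of the type VIII network of vessel walls, had 17.3 CPM at W0, 14.1 at W2, 18.1 at W5 and 17.03 at W8, and 7.03 at W11. It fell at W11 by 2.46-fold (95% counting interval 1.95 to 3.12), a fall that was less than 2-fold in 5 of 12 alternatives, among them length trend removal and median-of-ratios scaling. Its partner Col8a2 had 5.30 CPM at W0, 2.19 at W2, 2.11 at W5 and 1.57 at W8, and 2.21 at W11. It fell at W5 and W8, to 0.398 and 0.296 times W0, and 2-fold was kept at W5 in 4 of 11 alternatives and at W8 in 8 of 11. Col22a1, a chain of tissue junctions, had 0.508 CPM at W0, 0.478 at W2, 2.21 at W5 and 3.14 at W8, and 0.937 at W11. It rose at W5 and W8, and both rises were under 2-fold with a pseudocount of 5 or RPKM values. Col20a1 had 3.05 CPM at W0, 2.19 at W2, 3.24 at W5 and 3.21 at W8, and 0.937 at W11. It fell at W11, and 2-fold was kept in 4 of 11 alternatives. Col23a1, a transmembrane chain, had 13.8 CPM at W0, 11.2 at W2, 16.3 at W5 and 20.02 at W8, and 14.3 at W11, with no difference of 2-fold from W0. Col13a1 and Col28a1 stayed between 1.94 and 5.54 CPM. The untested minor chains Col25a1 and Col26a1 reached at most 1.02 CPM, and Col10a1 is listed at 0 in all libraries.

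Comparing the last 2 libraries, collagen transcripts were lower at W11 than at W8 in all 3 classes. Of the 34 tested chains, 0 rose and 24 fell, against backgrounds of 3.4% and 11.9%, with a median log2 difference of -1.10 where all genes had -0.30. All 6 tested basement membrane chains fell, with a class median of -1.64, as did 5 of 9 fibrillar chains (median -1.05) and 13 of 19 minor chains (median -1.05). Among the larger falls were Col12a1, by 4.32-fold (95% counting interval 4.00 to 4.67), Col4a1, by 3.99-fold (95% counting interval 3.81 to 4.19), and Col1a1, by 3.06-fold (95% counting interval 2.92 to 3.21). Col3a1 went from 1429 to 791 CPM, a log2 difference of -0.85, short of 2-fold. With the length trend removed, 10 chains fell and the median was -0.79, and with median-of-ratios scaling 13 fell. The 8 chains that fell in all 10 alternatives were Col1a1, Col5a1, Col4a1, Col4a2, Col15a1, Col18a1, Col9a3 and Col12a1.

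W5 and W2 were the highest and lowest libraries by collagen sum. A comparison of them was chosen on those values, which set its direction, so its values are a description only. Of the 34 chains, 17 were higher at W5 by 2-fold or more and 0 were lower, where 9.44% and 4.46% of all genes were, and the median log2 difference was 0.92. Col18a1, at 6.62 times W2 (95% counting interval 5.79 to 7.60), and Col4a1, at 4.89 times W2 (95% counting interval 4.64 to 5.16), had ratios of the size of that of Col3a1. With the baseline at W2 in place of W0, Col4a5 and Col6a5 were the 2 of the 11 chains with a fall at W11 that kept it. Col19a1, at a log2 fold of 0.93 above W0, was also lower than at W2.

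The genes that modify, fold, cut, crosslink and bind collagen were counted by lists of their roles. Of all tested genes, W2 had 3.41% rising and 4.23% falling, W5 had 6.63% and 1.87%, W8 had 7.79% and 3.85%, and W11 had 11.3% and 16.9%. Of 15 hydroxylation and glycosylation genes, 0 changed at W2 or W5, 1 fell at W8 and 2 fell at W11, which is close to the share over all genes. The fallers were P3h2, a prolyl 3-hydroxylase, which had 8.27 CPM at W0, 4.85 at W2, 5.99 at W5 and 3.44 at W8, and 2.27 at W11, and at W11 P4ha1, a catalytic subunit of prolyl 4-hydroxylase. Of 12 chaperone and export genes, 0 changed up to W8 and 4 fell at W11, where 16.9% of all genes fell. Those were Mia3, the export receptor of procollagen, the COPII coat genes Sec23a and Sec24d, and Creb3l1, a transcription factor of the secretory pathway, which had 332 CPM at W0, 267 at W2, 273 at W5 and 178 at W8, and 61.96 at W11. Serpinh1, the collagen chaperone Hsp47, had 219 CPM at W0, 191 at W2, 212 at W5 and 239 at W8, and 197 at W11, and no difference from W0 reached 2-fold.

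Some crosslinking and cleavage enzymes rose, where 6.63% of all genes rose at W5, 7.79% at W8 and 11.3% at W11. Lox, the lysyl oxidase that starts collagen crosslinking, had 4.43 CPM at W0, 6.90 at W2, 24.9 at W5 and 47.3 at W8, and 13.7 at W11. It rose at W5, W8 and W11. Loxl2, which acts on type IV collagen, had 33.4 CPM at W0, 35.2 at W2, 77.4 at W5 and 85.3 at W8, and 41.1 at W11, with rises at W5 and W8. Of the 6 tested crosslinking genes these 2 were the ones that rose, and at W11 Loxl3 and Loxl4 fell. Bmp1, which removes the C-terminal propeptide of fibrillar procollagens, had 20.8 CPM at W0, 15.4 at W2, 47.5 at W5 and 59.4 at W8, and 33.5 at W11. It rose at W5 and W8. Of 7 tested propeptide cleavage genes it was joined at W5 by Adamts3, which cleaves the N-terminal propeptide, with a log2 fold of 1.67, and at W11 1 gene, Tll1, fell. With the length trend removed, 0 of these genes fell and 1 rose at W11.

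Collagen degradation genes had the largest medians of the 9 lists. Of 12 tested, Mmp3 rose and Mmp2 fell at W2, where 3.41% and 4.23% of all genes did. At W5 8 rose, at W8 9 and at W11 7, where 6.63%, 7.79% and 11.3% of all genes rose. The medians in these 3 libraries were 2.14, 3.17 and 1.85 on the log2 scale. Of the 12 genes, Mmp7, Mmp8 and Mmp10 averaged below 1 CPM over W0 and W2, and Mmp12 was below it at W0. They passed through their higher libraries, so the counts and medians of this list are partly set by the filter. Mmp7, an epithelial metalloprotease, had 0.0726 CPM at W0, 0.683 at W2, 128 at W5 and 556 at W8, and 293 at W11. Mmp13, a collagenase of fibrillar collagen, had 2.98 CPM at W0, 2.05 at W2, 39.7 at W5 and 110.2 at W8, and 27.3 at W11. Mmp10, a stromelysin, had 1.09 CPM at W0, 0.615 at W2, 54.5 at W5 and 141 at W8, and 83.3 at W11. All 3 were highest at W8 and remained above W0 at W11, while the chains' median at W11 was below W0. Fap, a fibroblast protease, was the 1 gene of this list that fell at W11, where 16.9% of all genes fell. Timp1 and Timp3, inhibitors of these proteases, are listed at 0 in all libraries and give no value.

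Fibril-associated proteins and receptors had mixed changes. Sparc, a collagen-binding glycoprotein, had 307 CPM at W0, 322 at W2, 712 at W5 and 658 at W8, and 414 at W11, with rises at W5 and W8. Tnxb, a tenascin that bridges fibrils, had 225 CPM at W0, 108 at W2, 116 at W5 and 65.5 at W8, and 20.5 at W11, with falls at W2, W8 and W11. At W11, 3 of 11 tested fibril-associated genes fell (Prelp, Tnxb and Postn) and 0 rose, against 16.9% and 11.3% of all genes. Of 9 tested collagen receptors, 2 fell at W2 (Itga11 and Mrc2), 0 changed at W5 or W8, and 2 fell at W11 (Itga11 and Ddr2). Of all genes, 4.23% fell at W2 and 16.9% at W11. With the length trend removed, 1 receptor fell at W11, and the median log2 fold of the list there went from -0.66 to -0.07. Itga11, the fibroblast integrin for fibrillar collagen, had 10.5 CPM at W0, 2.53 at W2, 8.49 at W5 and 7.77 at W8, and 1.54 at W11. Ddr2, a collagen-activated receptor kinase, had 45.1 CPM at W0, 41.6 at W2, 61.7 at W5 and 27.04 at W8, and 14.3 at W11. It fell at W11.

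Laminins, nidogens and heparan sulfate proteoglycans are the partners of type IV collagen in the basement membrane. Of 14 tested, 3 fell at W2, 2 rose at W5, 3 rose at W8, and at W11 0 rose and 5 fell. The share of all genes was 4.23% for falls at W2, 6.63% and 7.79% for rises at W5 and W8, and 16.9% for falls at W11. Lama1 had 3.85 CPM at W0, 2.12 at W2, 27.7 at W5 and 38.99 at W8, and 8.36 at W11, and it had the highest rise of the list at W8. Lama3 had 27.5 CPM at W0, 13.1 at W2, 70.7 at W5 and 115 at W8, and 52.99 at W11. Hspg2, the perlecan core protein, had 187 CPM at W0, 154 at W2, 146 at W5 and 185 at W8, and 57.01 at W11. It fell at W11. From W8 to W11, 12 of the 14 fell, against 11.9% of all genes. With the length trend removed, 5 of the 14 fell from W8 to W11, where 8.18% of all genes did. The W11 count against W0 was then 2 higher and 0 lower.

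**Figure D5:**
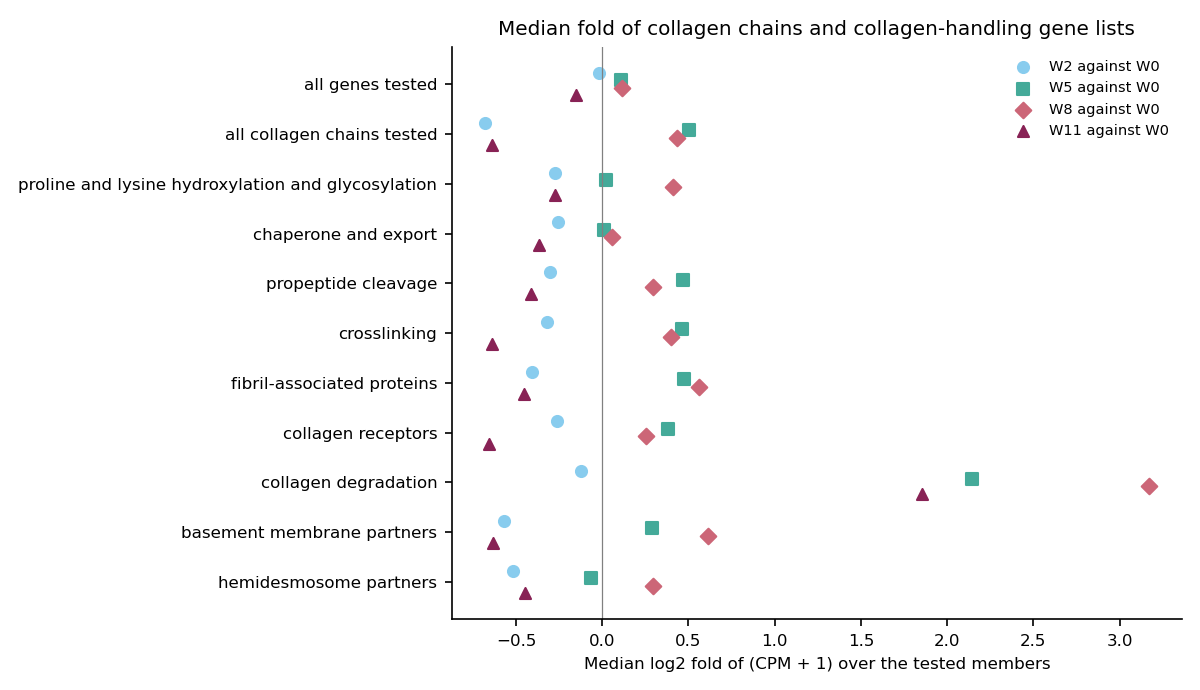
Median log2 fold of (CPM + 1) against W0 over the tested members of each list, with 1 marker per comparison, below the medians of all genes and of the collagen chains. The degradation list lies at 2.14, 3.17 and 1.85 at W5, W8 and W11, away from the others, and the chains lie at -0.68, 0.50, 0.44 and -0.64.

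Cell type markers moved with some of these results. The 10 fibroblast markers summed to 2435 CPM at W0, 1414 at W2, 2026 at W5 and 1586 at W8, and 1536 at W11. Gsn made up most of the W0 sum, with 1751 CPM at W0, 877 at W2, 958 at W5 and 715 at W8, and 667 at W11. Dcn, the next highest at W0, had 326 CPM at W0, 329 at W2, 546 at W5 and 482 at W8, and 610 at W11. The sum therefore mainly follows Gsn. The median log2 folds of the 10 markers were -0.62 at W2, 0.42 at W5 and 0.03 at W8, and -0.48 at W11. At W2, 0 of these 10 markers rose and 3 fell, against 3.41% and 4.23% of all genes, and at W5 2 rose and 0 fell, against 6.63% and 1.87%. Endothelial markers summed to 304 CPM at W0, 191 at W2, 293 at W5 and 275 at W8, and 179.9 at W11. Pericyte markers summed to 206 CPM at W0, 217 at W2, 354 at W5 and 242 at W8, and 169 at W11. Epithelial markers summed to 25300.2 CPM at W0, 19486 at W2, 19609 at W5 and 17372 at W8, and 17141 at W11. Krt8 alone had 13735 CPM at W0. Krt8, Krt19, Cdh1 and Vil1 were highest at W0, while Epcam was highest at W8, Krt18 at W11, Cldn7 at W2 and Krt20 at W5. Macrophage markers ranged from 255 CPM at W2 to 750.0 at W5, enteric glia markers from 67.5 at W11 to 185 at W0, adipocyte markers from 24.0 at W8 to 78.7 at W5 and B cell markers from 56.2 at W8 to 175 at W2. Myofibroblast or subepithelial markers summed to 1587 CPM at W0, 1718 at W2, 2429 at W5 and 1098 at W8, and 1001 at W11, of which Cthrc1 is listed at 0 in all libraries. The fibroblast median was low at W2 and W11 as the chains' was, and at W8 it was near W0 while 12 chains had risen. The part of cell composition in the collagen levels was not tested.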

How the data were processed

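Colon RNA was taken from about 40 mg of tissue with TRIzol and sequenced as Illumina TruSeq libraries, per the labels' protocols. The tools HISAT2 2.2.1, featureCounts and FastQC, and the builds GRCm39, mm39 and GRCm38, are named per the submitters' processing notes, while the sources used here give neither their roles nor the annotation or strand setting. Each library has 2 columns in the table. Under the TPM headers the authors deposited whole-number counts, with totals that differ between libraries. Those headed count hold RPKM-like values deposited by the authors, so the headers were taken as exchanged. All samples carry 1 batch label.

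Counts were divided by the library total (13389184 to 20379429) to give CPM, and 3 counts correspond to 0.147 to 0.224 CPM. Genes averaging 1 CPM or more were tested, folds used a pseudocount of 1 CPM, and 2-fold or more was the threshold. Count ratios have exact conditional 95% intervals (Clopper-Pearson). Chains reaching 10 CPM or changed against W0 (31 of 44) are given in every library and the other 13 by range. Other genes are named where they had the largest folds of their list at W8 or W11. Genes named beyond this (Acta2, Serpinh1, Sec24d, Timp1, Timp3, Adamts3, Tll1, Mmp8, Mmp12 and the markers) were chosen after their values were seen. GC content and length came from the longest GENCODE transcript (all 44 chains matched). Removing a trend subtracted the median fold of each of 20 bins of genes. The members, classes and lists were chosen with earlier results of these data known. An item of the lists is not reported here. Promoter windows came from RefSeq (GRCm38.p6). Windows were not in the table for Col1a1, Col2a1, Col4a3, Col5a2, Col9a3, Col12a1, Col14a1, Col22a1 and Col26a1. The alternatives tried were a pseudocount of 0.1 or 5, all genes unfiltered, a 5 CPM filter on the mean, scaling by the median of ratios (over genes of at least 10 CPM), totals without the top 50 genes, RPKM values, other baselines, type IV chains alone as the basement membrane class and, added after seeing the data, GC and length trend removal. The counting step was tested on simulated data. The tools were scipy 1.17.1, pandas 2.3.3, numpy 2.4.6 and matplotlib 3.10.9 under Python 3.11.15.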

Additional observations from a re-analysis of the deposited data

How the results depend on the processing

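No paired analysis was possible because each week has 1 library. For the same reason no library could be left out within a group. The number of chains that fell at W2 (7) became 11 with RPKM values and 4 with both trends removed, and the number that rose (1) became 2 with a pseudocount of 0.1. At W5, the 9 rises became 17 with W2 as the baseline, and the 1 fall became 0 with a pseudocount of 5, a mean of at least 5 CPM, RPKM values, the mean of W0 and W2 or W2 alone as the baseline, and either or both trends removed. At W8, the 2 falls became 0 with a pseudocount of 5 and 1 with a mean of at least 5 CPM (Col6a5). With the W0 and W2 mean or W2 as the baseline both falls were lost, and the 1 chain lower was Col19a1. At W11 against W0, the 11 falls became 3 with W2 as the baseline (Col4a5 and Col6a5 of the 11, and Col19a1, which is above W0), and 6 with the length trend or both trends removed, where the 3 rises became 6. At W11 against W8, the 24 falls became 15 with a pseudocount of 5, 13 with median-of-ratios scaling, 10 with the length trend removed and 11 with both removed. The cause was not tested.

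The fibrillar median minus the basement membrane median at W5, -0.29, became -0.51 with a pseudocount of 0.1 or a mean of at least 5 CPM, and -0.55 with type IV chains alone. At W8, -0.66 became -0.49 with a pseudocount of 5, 0.74 with no filter, -0.53 with the W0 and W2 mean as the baseline and -0.18 with W2. With no filter the basement membrane median at W8 was -0.092, and that setting adds 3 type IV chains, Col4a3, Col4a6 and Col4a4, at -0.09, -0.18 and -0.90. The Col19a1 fold at W5 was -0.17 with W2 as the baseline. Taken once per alternative setting, 141 of these counts and class differences kept within their limit and 32 did not. For a count the limit was 1.5 times its value. For a difference it was the counting error of the chains nearest the class medians, which is not a spread between chains or mice. With 1 library per week, variation between mice cannot be told apart from the weeks, and chains under 1 CPM rest on few reads.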
